A study of Homo sapiens with 6 samples.

Results

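The loci of 6 high mobility group genes, HMGA1, HMGA2, HMGB1, HMGB2, HMGN1 and HMGN2, were examined for accessible chromatin in DAMI cells, a human leukaemia line whose labels give the disease as MPN/AML. The assay was ATAC-seq: Tn5 transposase places sequencing adapters in open DNA, and a peak marks a stretch rich in such insertions. Of the 6 samples, 3 had been infected with a control lentivirus and 3 with a lentivirus carrying a short hairpin against HMGA1 (shHMGA1), so both groups carried a virus. The labels do not say whether the 3 samples of a group were separate cultures, which hairpin or promoter the virus held, or how far HMGA1 was reduced. Markers of the cell line were not examined, since peak lists give no expression. The series text also names SET-2, a second cell line, and no source used here says whether its libraries entered the peak lists, so the peaks are those of DAMI cells only as far as the labels go. One peak list per group was analysed on hg19. Members were the peaks that overlapped 6 fixed windows, and they numbered 41 of 127153 peaks in the control list and 39 of 112610 in the shHMGA1 list. With 1 list per group there is no replicate check, no p-value is given, and read depth is unknown.

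High mobility group proteins are abundant non-histone proteins that shape chromatin, and they form 3 families. HMGA proteins grip the minor groove of AT-rich DNA through AT-hooks, HMGB proteins bend DNA through HMG boxes, and HMGN proteins bind the nucleosome itself and loosen compaction. HMGA1 is the gene that the hairpin targeted, and since the hairpin degrades RNA, accessibility at this locus is no check of the silencing. HMGA2 is active mainly in the embryo and silent in most adult tissues.

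HMGA1 and HMGB1 each had more than 1 wide peak in their windows, and the RefSeq promoter table (GRCh38.p14) gives more than 1 transcription start for each of them, so their promoters are shown. The 250 bases before each start are printed from 5′ to 3′ on the strand of the gene, with starts numbered from the 5′ end of the gene. Capitals mark GGGCGG (the GC box) and CCAAT on either strand; GC boxes may overlap one another.
HMGA1 start 1: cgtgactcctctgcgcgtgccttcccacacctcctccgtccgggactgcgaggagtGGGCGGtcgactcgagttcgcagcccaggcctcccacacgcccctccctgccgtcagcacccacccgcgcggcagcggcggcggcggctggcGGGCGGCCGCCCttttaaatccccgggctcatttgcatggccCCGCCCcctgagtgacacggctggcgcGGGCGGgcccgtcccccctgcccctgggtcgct
HMGA1 start 2: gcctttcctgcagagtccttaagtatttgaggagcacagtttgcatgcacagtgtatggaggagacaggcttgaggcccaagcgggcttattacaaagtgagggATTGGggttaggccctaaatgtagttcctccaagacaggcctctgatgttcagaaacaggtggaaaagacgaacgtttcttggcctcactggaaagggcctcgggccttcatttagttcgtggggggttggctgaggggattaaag
HMGB1 start 1: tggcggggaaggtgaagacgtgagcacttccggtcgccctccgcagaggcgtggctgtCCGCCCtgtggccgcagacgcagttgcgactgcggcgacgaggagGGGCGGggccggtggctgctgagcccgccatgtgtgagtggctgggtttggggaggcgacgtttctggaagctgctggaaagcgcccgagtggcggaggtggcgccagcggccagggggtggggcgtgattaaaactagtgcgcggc
HMGB1 start 2: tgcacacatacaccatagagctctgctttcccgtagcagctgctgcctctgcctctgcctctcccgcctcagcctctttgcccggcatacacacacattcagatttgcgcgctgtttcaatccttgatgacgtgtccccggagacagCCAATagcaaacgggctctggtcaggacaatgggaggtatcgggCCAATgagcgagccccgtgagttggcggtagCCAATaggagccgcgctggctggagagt
HMGB1 start 3: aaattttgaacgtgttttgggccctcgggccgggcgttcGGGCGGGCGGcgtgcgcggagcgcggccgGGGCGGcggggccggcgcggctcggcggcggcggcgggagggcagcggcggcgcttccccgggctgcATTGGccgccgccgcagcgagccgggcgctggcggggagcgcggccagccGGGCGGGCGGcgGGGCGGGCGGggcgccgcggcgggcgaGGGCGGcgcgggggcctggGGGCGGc
The starts of a gene differed in base composition. Start 1 of HMGA1 had 74.8% G or C, 30 CpG and 5 GC boxes, and start 2 had 51.2%, 5 CpG and no GC box. HMGB1 start 3 was the richest, with 86.0% G or C, 51 CpG and 9 GC boxes, and start 2 held 3 CCAAT boxes with 58.4% G or C. The table matched 4 of the 6 genes, with 7 starts; HMGA2 and HMGB2 had no entry. Both HMGN genes had 1 start each, with 80.4% G or C for HMGN1 and 68.4% for HMGN2. Over all 35114 promoters of the table the median was 58.0% G or C and 11 CpG. GGGCGG was present in 42.6% of them and CCAAT in 32.0%. Among the 7 starts, GGGCGG was missing only from start 2 of HMGA1 and start 2 of HMGB1. CCAAT was missing only from start 1 of HMGA1 and start 1 of HMGB1. TATAAA (10.7% of all), AGATAA (9.17%) and TTTGGCGC (0.55%) were in none of the 7 windows, and CACGTG (6.35%) was in that of HMGN2. The longest run of A and T was 4 to 8 bases in the 7 windows, against a median of 6. A match is a run of letters and not a measured site. The peaks are on hg19 and the starts on GRCh38, so which peak covers which start was not determined. In RefSeq's order the adjoining coding genes include SMIM29 for HMGA1, MSRB3 and LLPH for HMGA2, UBE2L5 and USPL1 for HMGB1, GALNT7 and SAP30 for HMGB2, BRWD1 and GET1-SH3BGR for HMGN1, and DHDDS and RPS6KA1 for HMGN2. Whether a window reaches into these neighbours was not determined either, so its peaks need not belong to the HMG gene.

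The windows differed widely in accessible chromatin. In the control list HMGB2 held 21 peaks in 50 kb, HMGB1 held 8 in 200 kb, HMGA1 held 4 in 50 kb, HMGN1 held 4 in 45 kb, HMGN2 held 2 in 40 kb and HMGA2 held 2 in 190 kb. The shHMGA1 list held 22, 6, 5, 2, 1 and 3 in the same order. Thus HMGB2 supplied 21 of the 41 control and 22 of the 39 shHMGA1 members. Peaks covered 50.4% of the HMGB2 window in control cells and 40.0% in shHMGA1 cells. For HMGA2 the covered share was 0.298% and 0.432%, and for the other loci it lay between 3.14% and 11.4%. Covered bases counted together, 68.9% of those in either list were in both, against 63.0% for the whole lists. By locus this share ran from 33.6% at HMGA2 and 62.7% at HMGB2 to 89.0% at HMGN2. The sets differ in size of peak, with a median control width of 815 bp for members and 525 bp for the whole list.

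**Figure D1:**
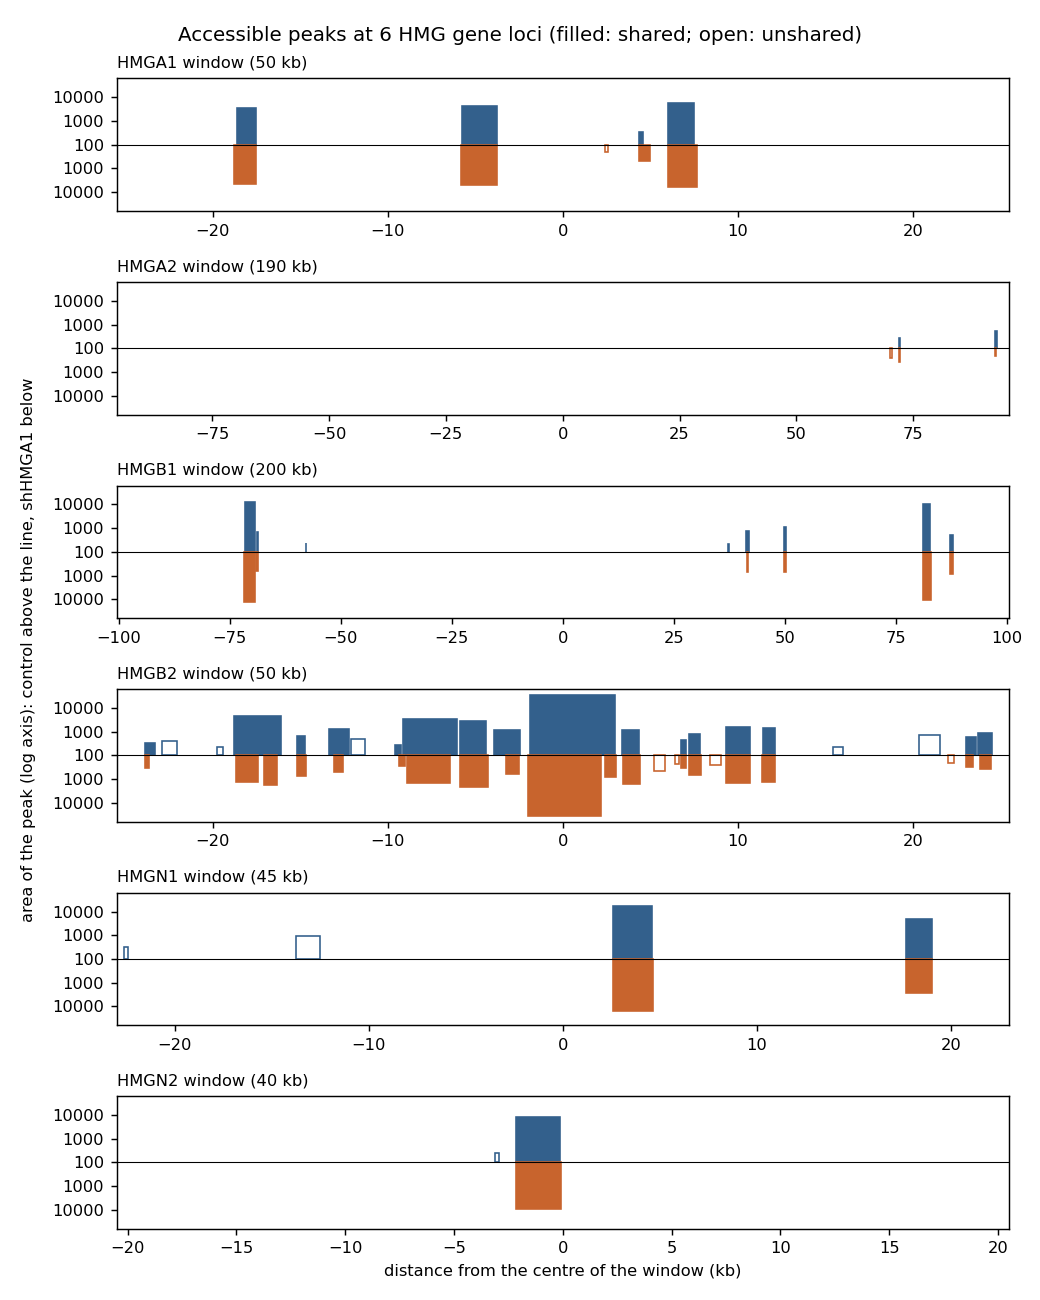
Peaks in the 6 windows, by distance from the window's centre (kb); the height of a box is the authors' peak area on a log axis from 100, with control above and shHMGA1 below the line. Filled boxes overlap a peak of the other list and open boxes do not; all boxes at HMGA2 are small, and the HMGB2 window is crowded under both conditions.

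Peak numbers per locus tracked those of the surrounding DNA at some loci and not at others. Within 1 Mb on either side of the HMGB2 window there were 432 control peaks per Mb, and the window itself held 420. For shHMGA1 cells the flanks held 414 per Mb and the window 440. HMGB2 therefore lay in a crowded stretch of distal 4q, and its many peaks were no denser than their neighbours in the control list. At HMGA1 the order was different, with 80 control peaks per Mb in the window against 33 around it, and 100 against 35.5 in shHMGA1 cells. HMGA2 lay below its surroundings, at 10.5 against 36 per Mb in control and 15.8 against 32 in shHMGA1 cells. At HMGB1 the window stood at 40 against 24.5 in control and 30 against 25.5 in shHMGA1 cells. The HMGN1 window was above its flanks in control (88.9 against 61) and below them in shHMGA1 cells (44.4 against 52.5). HMGN2 was below its flanks in both, at 50 against 58 and 25 against 60. These densities rest on 1 to 8 peaks per window outside HMGB2, so 1 peak moves them by a large step. Across chromosomes 1 to 22 and X, a 50 kb stretch held a median of 1 control peak, with a 90th percentile of 5. Stretches of 190 and 200 kb held medians of 5 and 6.

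**Figure D2:**
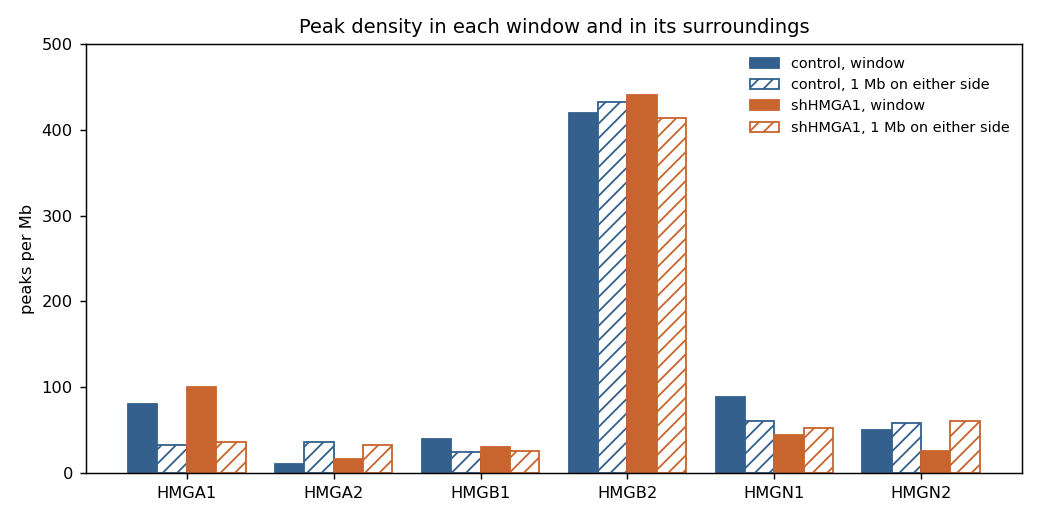
Peaks per Mb in each window (solid bars) and within 1 Mb on either side of it (hatched bars), in control (blue) and shHMGA1 (orange) lists. HMGB2 and its surroundings lie between 414 and 440 peaks per Mb in both lists, and HMGA2 is the sparsest window.

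Each deposited peak carries an area under its significance curve, the authors' value, which grows with width and depth and was used only within its own list. The list median was 602 in control and 616 in shHMGA1, and the top 10% of a list began at about 3748 and 3835. Of the control members 9 of 41 (22.0%), and of the shHMGA1 members 8 of 39 (20.5%), stood in the top 10%, a share that is 10% for a whole list by construction. HMGA2 had no peak there in either list. All 17 of these peaks were shared between the lists, as were all 12715 control and 11261 shHMGA1 peaks in the top 10% of the whole lists (0.0% unshared, where 3 counts allow up to 0.0236% and 0.0266%).

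**Figure D3:**
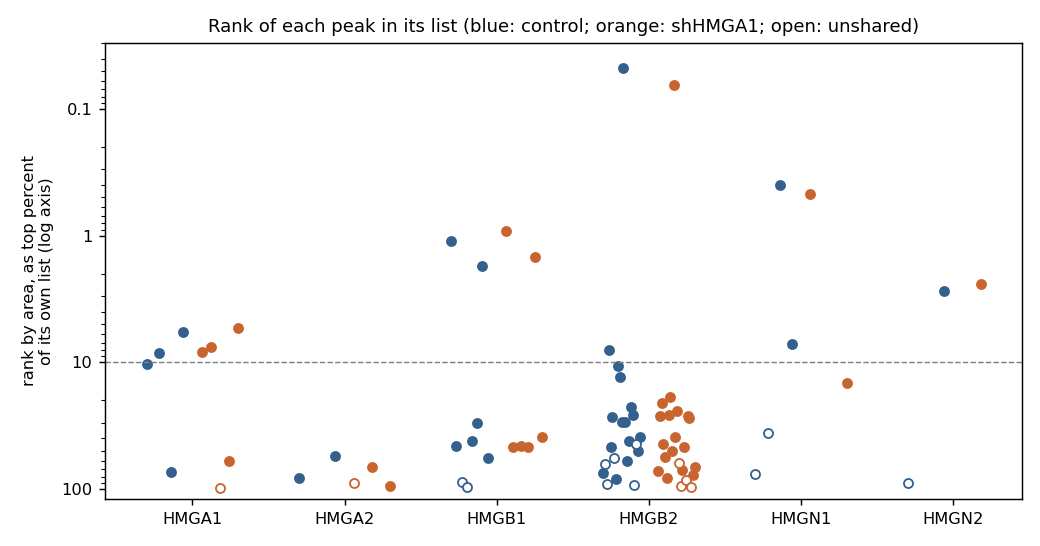
Rank of each peak by area, as the top percent of its own list on a reversed log axis, by locus and list (blue, control; orange, shHMGA1; open, unshared). The dashed line marks the top 10%; the highest point is at HMGB2 in both lists, and each open point lies below the dashed line.

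The window of HMGA1, the gene targeted by the hairpin, had 3 large peaks under both conditions. The largest was chr6:34216028-34217495 in control cells, 1468 bp wide with an area of 5721 and a summit −log10 p of 14.5. In shHMGA1 cells it was chr6:34216031-34217646, 1616 bp wide with an area of 6089 and a summit of 13.9. Its summits were 23 bp apart, and it ranked in the top 5.77% and 5.32% of the lists. The widest was chr6:34204236-34206231, at 1996 bp in control and 2083 bp in shHMGA1 cells, with areas of 4296 and 4821 and summits only 5 bp apart. The third, chr6:34191386-34192439, measured 1054 and 1222 bp, with areas of 3626 and 4467 and summits 4 bp apart. So the 3 large peaks of this window were present in both lists, with summits at most 23 bp apart. Which of them belong to HMGA1 was not determined.

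The remaining HMGA1 peaks were small. At chr6:34214367-34214597 the control peak was 231 bp wide with an area of 334, and the overlapping shHMGA1 peak was 619 bp wide with an area of 468. That is a width ratio of 2.68, and this was the single member pair wider in shHMGA1 by 1.5 times or more. A further peak, chr6:34212409-34212578, was in the shHMGA1 list alone, 170 bp wide, with an area of 208, which placed it in the top 97.9% of its list, near the bottom. The nearest control peak was 1788 bp away. None of the 4 control peaks of the HMGA1 window was unshared, against 24.9% of all control peaks. Of the 5 shHMGA1 peaks 1 was unshared, against 14.8% of all shHMGA1 peaks. All 4 HMGA1 pairs were the wider in shHMGA1 cells, against 44.8% of the 83581 pairs in the whole lists. With 4 pairs the exact 95% interval on the share runs from 39.8% to 100%. The sets differ in size of peak, with a median control width of 1261 bp at HMGA1 and 585 bp over all pairs. Elsewhere the wider pairs were 1 of 2 at HMGA2, 4 of 6 at HMGB1, 4 of 12 at HMGB2, 2 of 2 at HMGN1 and 1 of 1 at HMGN2.

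In the window of HMGA2, the embryonic relative of HMGA1, only weak peaks were called. All of them lay in the last part of the window, and its first 165 kb (86.9% of the window) had no peak in either list. The largest control peak, chr12:66377499-66377888, was 390 bp wide with an area of 520 and ranked in the top 55.3% of the list. Its shHMGA1 partner was 176 bp wide with an area of 218, so the control peak was 2.22 times as wide. The largest shHMGA1 peak, chr12:66356955-66357177, was 223 bp wide with an area of 390, and its control partner was 177 bp wide with an area of 279. A peak of 422 bp at chr12:66355100-66355521 was in the shHMGA1 list alone, with an area of 245 and a control peak 1429 bp away. Each HMGA2 peak of both lists was below the median area of its list. No strong accessible site was thus called in the HMGA2 window under either condition.

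For HMGB1, the HMG-box protein that also acts outside cells as an alarm signal, the window had 2 dominant peaks about 152 kb apart. The first, chr13:31038335-31040758, was 2424 bp wide in control and 2652 bp in shHMGA1 cells, with areas of 12621 and 13210. It ranked in the top 1.11% and 0.914% of the lists. The second, chr13:31191059-31192687, was 1629 and 1893 bp wide, with areas of 10649 and 11209 and summits 2 bp apart. Both were thus among the largest peaks of either list. A stretch of 95.0 kb between them had no peak in either list.

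The smaller HMGB1 peaks were mostly shared. Beside the first large peak, a pair at chr13:31041031-31041422 measured 392 and 477 bp. The pair at chr13:31159875-31160327 measured 453 and 451 bp, and that at chr13:31197325-31197865 measured 541 and 556 bp. At chr13:31151381-31151956 the control peak was 576 bp wide and its shHMGA1 partner 257 bp, a ratio of 2.24, with areas of 764 and 701. A further 2 small peaks were in the control list alone. One, chr13:31052136-31052260, was 125 bp wide with an area of 246, at 10749 bp from the nearest shHMGA1 peak. The other, chr13:31147264-31147419, was 156 bp wide with an area of 212, at 4102 bp from the nearest. Unshared were thus 2 of the 8 control peaks of this window, against 24.9% of all control peaks. None of its 6 shHMGA1 peaks was unshared, against 14.8% of all shHMGA1 peaks.

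The window of HMGB2, a close relative of HMGB1 that is abundant in dividing cells, had the largest peak of all the loci. In control cells it was chr4:174253147-174258000, 4854 bp wide, with an area of 35886 and a summit −log10 p of 27.1, and it ranked 60 among all control peaks by area. In shHMGA1 cells the main part was chr4:174252990-174257180, 4191 bp wide, with an area of 34567 and a summit of 27.5, and it ranked 73. The last part of the control peak was a separate shHMGA1 peak, chr4:174257437-174258016, 580 bp wide with an area of 856. Together they measured 4771 bp against 4854 bp in the control list, so the covered length was nearly the same.

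Other broad HMGB2 sites were also cut differently in the lists. The control peak chr4:174236232-174238902, 2671 bp wide with an area of 4510, overlapped 2 shHMGA1 peaks of 1228 and 717 bp, with areas of 1393 and 1815. Between chr4:174245436-174248973, 2 control peaks of 328 and 3078 bp met 2 shHMGA1 peaks of 346 and 2406 bp. All 3 sets of peaks not paired singly in the 6 windows were at HMGB2. The remaining 12 HMGB2 pairs included 4 wider and 7 narrower in shHMGA1 cells, and 1 of equal width. Narrower by 1.5 times or more were the pairs at chr4:174231133-174231673 (541 against 215 bp), chr4:174241644-174242779 (1136 against 560 bp), chr4:174251086-174252533 (1448 against 731 bp) and chr4:174278062-174278624 (563 against 365 bp). Summits of HMGB2 pairs were within 100 bp in 8 of 12, against 83.6% of all pairs, and up to 399 bp apart.

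HMGB2, with most of the members, held 9 of the 16 unshared ones. Unshared were 5 of its 21 control peaks and 4 of its 22 shHMGA1 peaks, against 24.9% and 14.8% of the whole lists. The widest of the 5 control-only HMGB2 peaks was chr4:174275350-174276571, 1222 bp wide with an area of 720. An shHMGA1 peak began 427 bp after it. That shHMGA1 peak, chr4:174276999-174277343, was itself unshared, 345 bp wide with an area of 216. The other control-only peaks were 368 to 862 bp wide, at chr4:174232113-174232974, chr4:174235237-174235604, chr4:174242901-174243715 and chr4:174270434-174271040. Their areas were 423, 231, 497 and 228 in that order. The other shHMGA1-only peaks were chr4:174260204-174260869 (area 440), chr4:174261403-174261650 (area 220) and chr4:174263439-174264048 (area 264). The last pair of these lay only 119 and 296 bp from a control peak. At this crowded locus the unshared peaks were thus often close to a peak of the other list.

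For HMGN1, a nucleosome-binding protein encoded on chromosome 21, the largest peak was near the middle of the window. This peak, chr21:40720091-40722078, was 1988 bp wide in control and 2023 bp in shHMGA1 cells, with areas of 17422 and 16311. Its area per base was 8.76 in control, the highest among the control members, and 8.06 in shHMGA1, where the main HMGB2 peak stood higher at 8.25. By area it ranked 511 and 531. The next, chr21:40735223-40736550, measured 1328 and 1381 bp with summits 3 bp apart, and its areas were 4932 and 2675. It was in the top 7.15% of the control list and the top 14.7% of the shHMGA1 list. Widths and summits of this pair were close; areas from separate lists are given side by side and were not compared.

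The HMGN1 window held the largest control-only member. It was chr21:40703736-40704984, 1249 bp wide with an area of 938 and a summit −log10 p of 6.07, and no shHMGA1 peak lay within 13929 bp of it. By area it ranked 289 among the 31635 control-only peaks of the whole list, in the top 0.914%. Among all control peaks it was only in the top 35.9% by area. Its area per base was 0.751, against a median of 1.408 for the control list. The other control-only peak, chr21:40694864-40695095, straddled the edge of the window, 232 bp wide with an area of 317. Unshared were thus 2 of the 4 control peaks of the window, against 24.9% of all control peaks. Neither of its 2 shHMGA1 peaks was unshared, against 14.8% of all shHMGA1 peaks.

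For HMGN2, the second nucleosome-binding gene, the window had 1 large peak, chr1:26797845-26799855. It measured 2011 bp in control and 2057 bp in shHMGA1 cells, with areas of 8703 and 9243, summits of 13.0 and 14.2 and a distance of 48 bp between summits. It ranked in the top 2.75% and 2.41% of the lists, and made up 97.3% of the summed area of the window in control cells. A control-only peak of 191 bp at chr1:26796878-26797068, with an area of 241, lay 781 bp from the shHMGA1 peak.

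Over the 6 windows, the share of unshared peaks was close to that of the whole lists. Of the control members 10 of 41 were unshared (24.4%, exact 95% interval 12.4 to 40.3), against 24.9% of all control peaks. Of the shHMGA1 members 6 of 39 were unshared (15.4%, interval 5.86 to 30.5), against 14.8% of all shHMGA1 peaks. Intervals cover counting error only and treat neighbouring peaks as independent. The unshared members were mostly weak, as were the unshared peaks of the whole lists. Below the list's median area were 8 of the 10 control-only members and all 6 shHMGA1-only members, against 93.8% and 95.7% of all unshared peaks. The exceptions were the HMGN1 peak of 1249 bp and the HMGB2 peak of 1222 bp. Among all peaks below the median area, the unshared share was 46.7% in control and 28.4% in shHMGA1; among members it was 8 of 15 and 6 of 16.

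Where a member paired singly with a peak of the other list, summits mostly lay close together, as they did over all pairs. The 27 pairs had a median distance between summits of 27 bp, against 20 bp for all pairs. Within 100 bp were 23 of 27, against 83.6% of all pairs. In 16 pairs the shHMGA1 peak was the wider (59.3%, exact interval 38.8 to 77.6), in 10 the narrower and in 1 equal, and the median log2 ratio of widths was 0.04. The value for all pairs was 44.8% wider. Without the HMGB2 window, a split chosen after seeing the data, 12 of 15 pairs were wider in shHMGA1 cells (80.0%, interval 51.9 to 95.7). At HMGB2 alone 4 of 12 were wider (33.3%, interval 9.92 to 65.1). Because the split was chosen from these same values, neither interval is a test against the value for all pairs. The median control width was 1054 bp for the 15 pairs and 585 bp for all pairs. No share matched for width was computed. The difference between HMGB2 and the other loci was not tested. Changes of 1.5 times or more were 1 wider and 6 narrower pairs, against 9.8% and 13.8% of all pairs. The 6 narrower pairs measured 390 to 1448 bp in control and 176 to 731 bp in shHMGA1 cells.

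**Figure D4:**
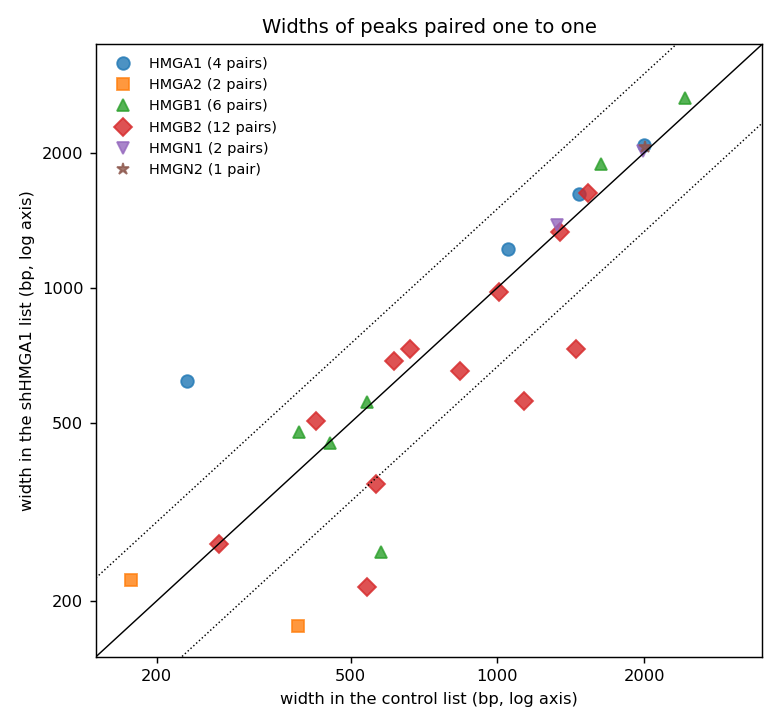
Width of each singly paired peak in the control list and in the shHMGA1 list (bp, log axes), by locus; the solid line marks equal widths and the dotted lines a ratio of 1.5. Of the 27 pairs 20 lie between the dotted lines, and the widest pairs lie close to the solid line.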

How the data were processed

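ATAC-seq of 3 control and 3 shHMGA1 samples was deposited as 1 narrowPeak list per group, assigned by the list's own name. Peaks were called with Genrich on hg19, per the submitters' processing notes; for the version, settings, aligner, filters, the pooling of samples and any SET-2 libraries in the lists, the entry is: not given in the sources used here. The authors' deposited columns are positions in whole bases, a score (capped at 1000), a signal (the area under the significance curve) and the summit −log10 p, unadjusted, with −1 in the q-value column. The score followed area per base in 127153 of 127153 control and 112608 of 112610 shHMGA1 rows. Depth is unknown.

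Windows were HMGA1 chr6:34185001-34235000, HMGA2 chr12:66190001-66380000, HMGB1 chr13:31010001-31210000, HMGB2 chr4:174230001-174280000, HMGN1 chr21:40695001-40740000 and HMGN2 chr1:26780001-26820000. The members and lists were chosen with earlier results of these data known. Sharing required 1 bp of overlap between lists. Peaks overlapping exactly 1 peak, and the reverse, were paired. Named were each locus's largest peak by area, each unshared peak (at most 5 per list and locus) and each pair differing 1.5 times in width; other peaks were added after their values were seen. Further HMG genes were not analysed here, since no hg19 annotation was used. Overlap and pairing were tested on a simulated list made from the control list by dropping peaks, trimming starts and planting new peaks. No peak was split or joined in it, so those cases were not tested. Tools were scipy 1.17.1, matplotlib 3.10.9, pandas 2.3.3 and numpy 2.4.6 in Python 3.11.15. Alternatives were 7 planned settings and 1 added later.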

Additional observations from a re-analysis of the deposited data

How the results depend on the processing

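Of 35 recomputed values, 18 stayed within 1.5 times the count, or within the interval of the share. A stricter call threshold (5.24, the median summit −log10 p of both lists joined) kept 26 control and 20 shHMGA1 members. Of these, 8 were control-only and 1 was shHMGA1-only. Lists cut to equal length (the top 56305 by significance) left 20 and 20, of which 4 and 3 were unshared, and 80% of pairs were wider in shHMGA1. Requiring 50% reciprocal overlap raised the unshared members to 17 in control and 15 in shHMGA1. A distance of 500 bp left 3 shHMGA1-only peaks. Windows narrowed by 10 kb left 4 control-only peaks. Leaving out HMGB2, chosen after seeing the data, left 20 control and 17 shHMGA1 peaks, 5 and 2 unshared, with 80% of pairs wider in shHMGA1. Windows widened by 10 kb gave 47.4% wider, below an even split, though within the interval. The cause of these shifts was not tested. No share over the whole lists was computed under these settings. Whether the shifts are particular to the windows was therefore not tested either. Under the stricter threshold and under equal length, the HMGA2 window had 1 control and 0 shHMGA1 peaks. The overlapping shHMGA1 peak was cut, at a summit −log10 p of 4.265 against 5.701 in control. With both settings the 3 large peaks of the HMGA1 window were shared. Lists were cut before sharing was judged, so a peak could lose its partner and count as unshared. No paired analysis was possible because the samples of a group were deposited as a single list, which also leaves no replicate to remove. Unknown depth limits each count of weak peaks.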
